A study of Mus musculus with 4 samples.

Results

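MicroRNA genes are described here through the regions of changed H3K9me3 that lie nearest to them in microglia of Arid1a knockout (KO) mouse embryos. The members were chosen by name: every listed region whose gene with the nearest transcription start was a Mir gene with a number, or a let-7 gene, while host transcripts of microRNAs were left out. There were 69 such regions among 5432, and they belonged to 63 microRNAs. No region was assigned to a let-7 gene.

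Microglia, the resident macrophages of the brain, were sorted from the telencephalon of C57BL/6 embryos. KO embryos carried Arid1acKO-Cx3cr1, a conditional loss of Arid1a by Cre driven from Cx3cr1, a gene of microglia and other macrophages, so that loss is limited to cells that have expressed Cre. Control embryos carried Arid1afl/fl, floxed Arid1a, and are called WT in the sample titles. Embryos were at E14 by the sample labels and at E14.5 by the protocol. The product of Arid1a is part of SWI/SNF, a complex that remodels chromatin. H3K9me3 was profiled by CUT&Tag, where a transposase tethered to an antibody cuts DNA at marked nucleosomes, in 100000 cells per sample with 14 PCR cycles. There were 4 libraries, 1 of H3K9me3 and 1 of control IgG for each genotype. The authors deposited 2 lists of regions, those where H3K9me3 was higher in KO than in control microglia and those where it was lower. Reads and values of single libraries are not in the lists. Depth is therefore unknown, no difference has a replicate check and no test between genotypes was possible. Arid1a was the nearest start of 0 listed regions, and the lists offer no check of the deletion or of the cells' identity.

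MicroRNA genes are transcribed as long primary transcripts, from promoters of their own or within introns of other genes. Drosha cuts out a hairpin in the nucleus, Dicer trims it in the cytoplasm, and an Argonaute protein carries the mature strand to messenger RNAs that pair with its seed. H3K9me3 marks silent chromatin, and at a promoter it accompanies low transcription. The start of a microRNA in the lists is the 5′ end of the annotated hairpin, which can lie far from the promoter of the primary transcript.

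Mature sequences were taken from RefSeq on the GRCm38.p6 build, which held them for 54 of the 63 microRNAs. They are written 5′ to 3′ with the seed, bases 2 to 8, in capitals. The first set shows relatives of miR-21, a microRNA abundant in macrophages, because 3 microRNAs in the lists resemble it. The first line is miR-21a-5p itself, whose gene was not among the members.
mmu-miR-21a-5p: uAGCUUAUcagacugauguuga
mmu-miR-21c: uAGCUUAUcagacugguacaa
mmu-miR-21b: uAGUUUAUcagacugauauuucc
mmu-miR-3967: aGCUUGUCugacugauguug
With positions counted from 1 at the 5′ end of miR-21a-5p, miR-21c had no difference in the seed and differed at A16G, G18A, U19C, U20A and G21A. The seed of miR-21b differed at C4U, and 18 of 22 bases were identical. Mature miR-3967 begins at base 2 of miR-21a-5p and matched it at 18 of 20 bases, with the changes A7G and A10U, a likeness looked for after the sequences were seen.

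The second set holds conserved microRNAs whose regions are described below, and miR-195b, which carries the seed of the miR-195a family. The line of miR-195a-5p is given for comparison, and its gene was not among the members.
mmu-miR-218-5p: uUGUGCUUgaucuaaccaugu
mmu-miR-148a-3p: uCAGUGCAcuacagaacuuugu
mmu-miR-302b-3p: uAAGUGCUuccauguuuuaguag
mmu-miR-217-5p: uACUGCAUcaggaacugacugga
mmu-miR-551b-3p: gCGACCCAuacuugguuucag
mmu-miR-708-5p: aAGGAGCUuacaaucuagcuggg
mmu-miR-195a-5p: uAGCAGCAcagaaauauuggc
mmu-miR-195b: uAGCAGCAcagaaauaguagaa
Several of these seeds recur in microRNAs outside the members. Among conserved families alone, that of miR-148a-3p was found in Mir148b and Mir152, and that of miR-218-5p in Mir218-1. That of miR-302b-3p was found in Mir302d and that of miR-708-5p in Mir28a. Over the whole table, 4 other mature sequences carried the seed of miR-302b-3p and 2 that of miR-218-5p. Against miR-195a-5p, miR-195b differed at U17G, G19A and C21A and matched 18 of 21 bases.

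The third set shows members that share a seed with each other, and those with the highest scores or the shortest distances.
mmu-miR-6351: uAGCGUUGcucagggagcacaug
mmu-miR-6239: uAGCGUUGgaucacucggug
mmu-miR-873a-5p: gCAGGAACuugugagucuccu
mmu-miR-6370: gCAGGAACagcaaaggggaag
mmu-miR-5623-5p: uGGCAGCUggcaagucagaaugca
mmu-miR-6349: uGGAAUGUgggaggggcaugcg
mmu-miR-2136: cUGGGUGUugacugagaugug
mmu-miR-743a-3p: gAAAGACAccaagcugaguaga
Mir6351 had a region in the higher list and Mir6239 one in the lower list. Mir873a and Mir6370 both had lower regions. Outside the conserved families, 6 of 47 microRNAs with a sequence (12.8%, exact 95% binomial interval 4.83 to 25.7) carried the seed of a conserved family, against 76 of 767 (9.91%, 7.89 to 12.2) in the whole table, so the members' share was near that of all microRNAs. By whole sequence, 4 of the 47 (8.51%, 2.37 to 20.4) matched a conserved microRNA at 80% or more of at least 18 aligned bases, namely miR-3967, miR-195b, miR-21b and miR-129b-5p, beside 25 of 767 (3.26%, 2.12 to 4.77), a measure chosen after the sequences were seen. Intervals of shares are exact Clopper-Pearson intervals at the 95% level, those of medians come from the ranked values, and both cover counting error only.

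The fourth set shows hairpins that pair by position. Mir129b is annotated on the strand opposite to Mir129-2, a neural microRNA, and its whole length of 65 bases lies inside that of its partner. Capitals mark the mature strands.
Mir129b: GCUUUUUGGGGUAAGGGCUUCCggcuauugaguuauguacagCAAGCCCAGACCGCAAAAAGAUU
Mir129-2: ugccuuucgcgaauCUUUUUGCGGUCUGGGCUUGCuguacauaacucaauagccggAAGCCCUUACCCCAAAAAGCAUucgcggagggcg
Mir873a and Mir873b overlap in the same way over 77 bases.

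Both directions of change occurred near microRNA genes, in about the proportion of the lists as a whole. Of the 69 regions, 42 were higher in KO and 27 lower. All listed regions were higher in 64.2% and lower in 35.8% of cases. The members' share of higher regions was 60.9% (48.4 to 72.4), and the share of all regions lay within its interval. On the X chromosome 3 member regions were listed, at Mir3110, Mir743 and Mir3472, and all 3 were higher, beside 134 higher and 34 lower among all regions of X. Chromosome 1 had 6 member regions, all higher, beside 253 higher and 120 lower among all its regions. Chromosome 14 had 3, all lower, beside 151 higher and 80 lower. Chromosome 17 had 2, both lower, beside 120 higher and 78 lower. Each other chromosome with member regions had some in both lists, and counts this small were not tested.

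Scores were mostly low and close to those of the lists. The authors' score, whose scale is not stated, serves only to rank regions within a list. Its median over the higher microRNA regions was 2.52, the same as over all higher regions. Over the lower microRNA regions the median was 2.86 (95% interval of the median 2.22 to 3.31), against 2.66 over all lower regions. The same score often recurred, so ranks are shared. The median width of all microRNA regions was 393 bp (369 to 436). It was 425.5 bp (377 to 478) for higher microRNA regions, beside 404 bp for all higher regions, and 366 bp (306 to 433) for lower microRNA regions, beside 357 bp.

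**Figure D1:**
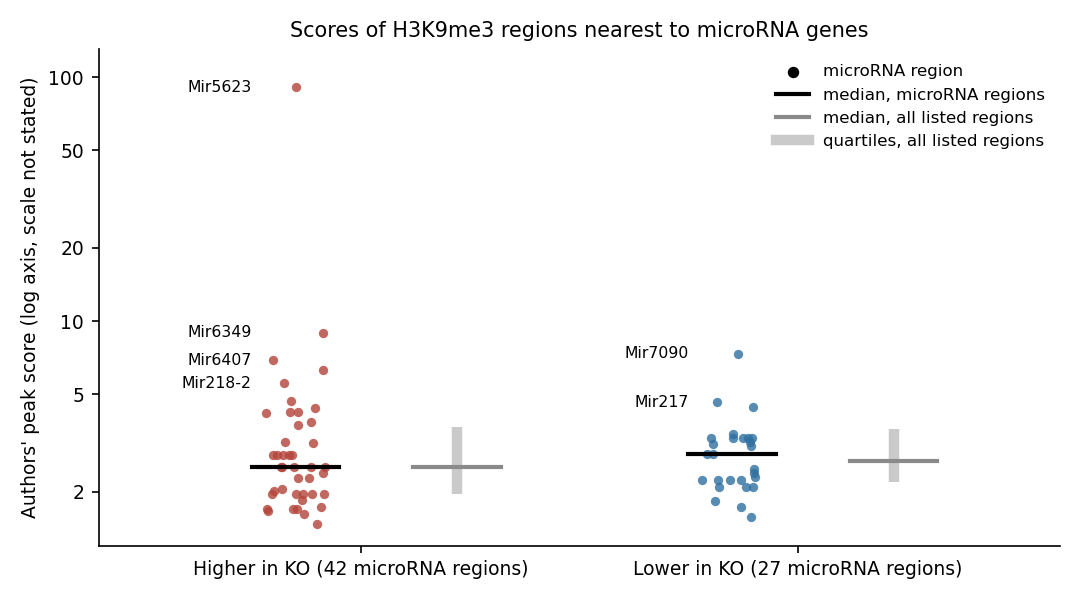
Authors' score of each microRNA region (points, log axis) in the higher and the lower list, with the median of microRNA regions in black and the median and quartiles of all listed regions of the same list in grey. Mir5623, at 90.8, stands far above the other higher microRNA regions, of which the next is Mir6349 at 8.93, and scores are compared within a list only.

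The highest score of the higher list among microRNAs, 90.8, belonged to a region of 309 bp at chr19:58113288-58113596, nearest to Mir5623. Positions, as listed by the authors, were taken to be on GRCm38, although the submitters' notes name mm9. Distances and host genes rest on that reading. The region ranked 8 of 3488 in the list. Both the region and the hairpin lay in Atrnl1, a gene for an attractin-like membrane protein. The region was in intron 28 of 28, 62.1 kb downstream of the hairpin's start, and the nearest other listed region was 119 kb away. It was the only member among 12 listed regions with a score above 50.

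The next scores among the higher microRNA regions were far smaller. A promoter region at chr1:39187499-39187821, 507 bp upstream of Mir6349, scored 8.93. The region nearest to Mir6407 scored 6.90 but lay 290 kb from it, and that of Mir145b scored 6.30 at 10.8 kb upstream. Mir218-2, a microRNA of motor neurons, had a region of score 5.57 at chr11:35599697-35600182, 16.6 kb upstream of the hairpin in intron 12 of 35 of Slit3, the axon guidance gene that hosts it. Mir21b scored 4.72 in an intron of Egfem1, 49.9 kb upstream of the hairpin. Mir129b scored 4.40, and its region lay 17.7 kb upstream in intron 3 of 5 of the host transcript Mir670hg. Mir6238 and Mir7089 both scored 4.23, the first at 201 kb and the second at 5.98 kb. The region of Mir7066 scored 4.20 and lay in the 3′ UTR of Ncan, the gene of the brain proteoglycan neurocan, which also holds the hairpin.

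Among the lower microRNA regions the highest score, 7.36, was at chr9:121060218-121060803, nearest to Mir7090. The hairpin lies in Ctnnb1, the beta-catenin gene, but the region was 105 kb downstream in intron 34 of 36 of Ulk4. Mir217 followed with 4.65 and Mir378c, inside Samd4, with 4.45. Mir5710, in the chaperone gene Dnaja4, scored 3.45, and Mir5709, in the receptor phosphatase gene Ptprm, 3.33. The regions of Mir1192, Mir2136, Mir5622 and Mir7676-1 shared the score 3.31, and that of Mir6370 scored 3.21. Of these 10 regions, 6 were in introns, and in 4 the hairpin and the region lay in the same RefSeq gene. Among the 10 highest higher regions these counts were 4 and 6.

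No region overlapped its hairpin, and 10 lay within 3 kb of the start. Hairpins were 54 bp (Mir7219) to 136 bp (Mir8090) long, with a median of 77 bp, and 0 of the 69 regions overlapped their own hairpin, which allows a share of up to 5.21%. Among all listed regions 19.8% overlapped the gene with the nearest start, but most of those genes are far longer than a hairpin. The median distance from the start was 16.6 kb (9.05 to 27.5), against 20.2 kb (19.3 to 21.1) over all regions. Higher regions had a median of 16.4 kb and lower regions one of 16.8 kb. Within 10 kb of the start lay 26 regions (37.7%, 26.3 to 50.2), beside 32.2% of all regions. Regions upstream of the start were less frequent among members, 24 of 69 (34.8%, 23.7 to 47.2), than among all listed regions (47.5%, 46.1 to 48.8), a difference that was not tested.

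**Figure D2:**
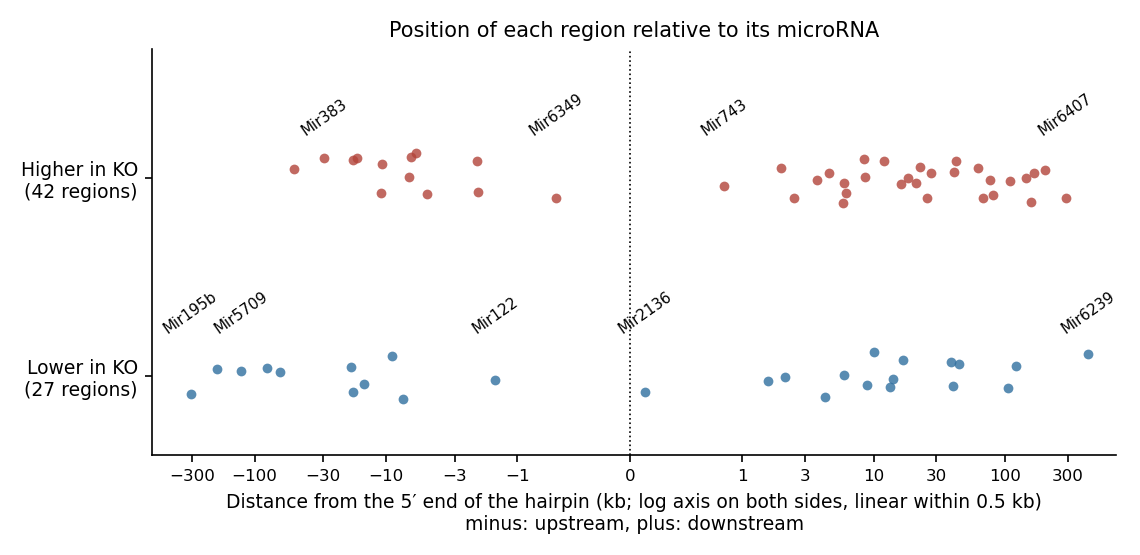
Distance of each region from the 5′ end of its hairpin in kb (log axis on both sides, linear within 0.5 kb), upstream to the left and downstream to the right, for 42 higher and 27 lower regions. Mir2136 has the closest region, and Mir6239, at 428 kb, the farthest.

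Of the 26 regions within 10 kb, 10 were in the promoter class, which here means within 3 kb of the start, and 6 of those were higher and 4 lower. Mir6349 is described above. Mir743, of an X-linked testis cluster of rodents, had a region of score 2.82 at 729 bp downstream of its start, and Mir742, Mir743b and Mir883a lie within 10 kb of its hairpin. Mir6351 had a region of score 2.82 at 1.98 kb, inside the long noncoding gene 6030407O03Rik with its hairpin. Mir344f, of a rodent family, had one of score 2.52 at 1.99 kb upstream. The region of Mir7023 scored 2.27 at 2.04 kb upstream and lay with its hairpin in Pik3cd, which encodes a kinase subunit of leukocytes. That of Mir7211, in Tmcc3, scored 1.66 at 2.50 kb.

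The 4 lower promoter regions were at Mir2136, Mir122, Mir683-2 and Mir8094. Mir2136 had the region closest to any hairpin, at chr9:104426218-104426583, which began 31 bp beyond the hairpin's end and scored 3.31. Mir122, the abundant microRNA of liver, had a region of score 2.47 at 1.48 kb upstream. Mir683-2, listed as a rodent family, had one of score 2.22 at 1.58 kb downstream. Mir8094, in the RNA helicase gene Ddx39b, had one of score 1.58 at 2.11 kb downstream.

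Between 3 and 10 kb lay 11 higher and 5 lower regions. The higher ones ranged in score from 1.69 to 4.23. Downstream of the start lay those of Mir133a-2 (score 2.38) at 3.68 kb, Mir6897 (1.73) at 4.57 kb, Mir3967 (1.69) at 5.85 kb, Mir7089 (4.23) at 5.98 kb, Mir7226 (1.95) at 6.22 kb, Mir7219 (3.76) at 8.47 kb and Mir7066 (4.20) at 8.60 kb. Upstream lay those of Mir6901 (1.85) at 4.85 kb, Mir6403 (2.00) at 5.91 kb, Mir7015 (2.27) at 6.41 kb and Mir1948 (2.52) at 6.66 kb. In 6 of the 11 the region and the hairpin shared a RefSeq gene, among them Gad2 for Mir3967, whose product makes the transmitter GABA, and Smap2 for Mir7015. Of the lower ones, those of Mir5710 (score 3.45) at 4.27 kb, Mir1971 (2.08) at 5.98 kb and Mir3058 (1.83) at 8.84 kb, in Nudt4, were downstream. Those of Mir5622 (3.31) at 7.44 kb, in an intron of the spindle gene Tpx2, and Mir21c (2.08) at 9.05 kb were upstream.

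For most member regions the hairpin lay inside another gene, and many of the regions themselves did so too. In 52 of the 69 regions (75.4%, 63.5 to 84.9) the hairpin lay inside another RefSeq gene. A microRNA with several regions counts once for each of them. Neither this share nor the next was counted over all RefSeq microRNAs, so neither is read as particular to the members. Region and hairpin were in the same gene in 33 (47.8%, 35.6 to 60.2), 21 of them higher and 12 lower. In 14 the hairpin had a host but the region overlapped no RefSeq gene, in 14 both were outside genes, in 5 they were in different genes, and in 3 the region alone was in a gene. By the authors' class, 33 regions (47.8%, 35.6 to 60.2) were intronic, 18 higher and 15 lower, beside 35.8% of all listed regions. Introns and exons of named genes together held 34 regions (49.3%, 37.0 to 61.6), beside 38.0% of all. Intergenic regions numbered 21 (30.4%, 19.9 to 42.7), 14 higher and 7 lower, beside 47.4%. Promoter regions numbered 10, with an interval of 7.17% to 25.0%, beside 12.7% of all regions. Downstream regions numbered 3 (4.35%, 0.906 to 12.2), beside 1.16% of all regions. The 2 exon or UTR regions (2.90%, 0.353 to 10.1), of Mir7066 and Mir7657, stood beside 2.98% of all. Both were higher, beside 62.3% of the 162 listed regions of that class, and 2 regions are too few to compare.

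**Figure D3:**
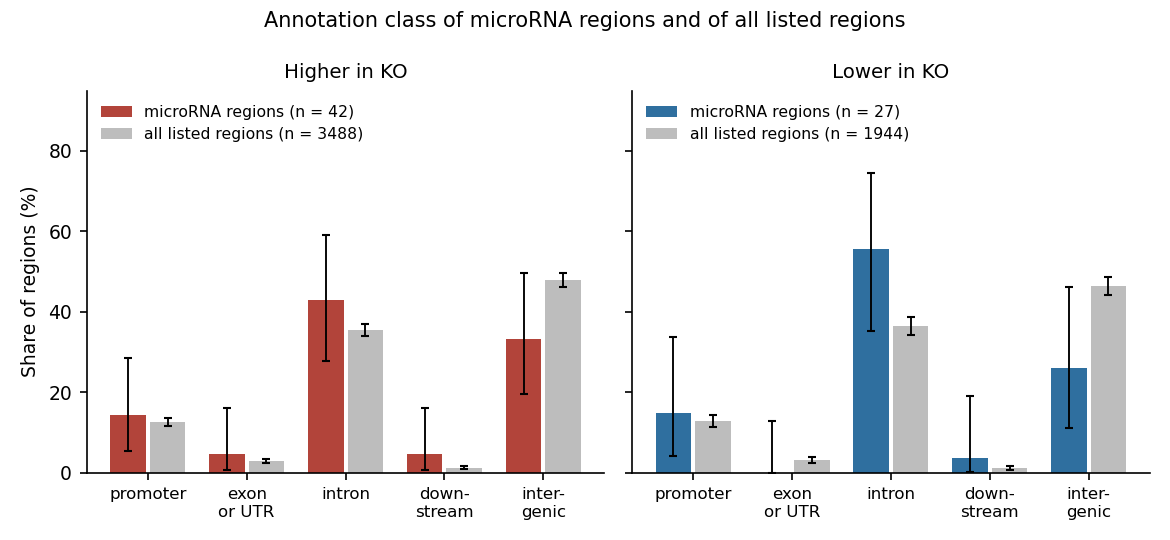
Share of regions in each annotation class (%), for microRNA regions (coloured) and all listed regions (grey), in the higher list on the left and the lower list on the right, with exact 95% binomial intervals as bars. Introns held 42.9% of the higher and 55.6% of the lower microRNA regions, and 33.3% and 25.9% were intergenic.

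Some of the genes that hold a member region by the authors' class held more than 1 listed region. Tenm4, a teneurin adhesion gene of neurons, held 4, of which 3 were higher and 1 lower, and 2 of the 4 were nearest to Mir708. Fam19a5, which encodes a secreted brain protein and is called Tafa5 in RefSeq, held 1 higher and 2 lower regions, and the 2 nearest to Mir6393 were 1 of each, but the hairpin of Mir6393 lies outside the RefSeq gene. Chsy3, likewise no RefSeq host of the microRNA, held 1 higher region and 1 lower one, the lower one nearest to Mir6355. Gm20388, which had no entry of that name in the RefSeq table, held 6 higher and 2 lower regions, of which 1 higher region was nearest to Mir7237. Slit3 held 2 higher regions and so did Sgcz, the zeta-sarcoglycan gene that hosts Mir383. Ptprm held 1 higher and 1 lower region, of which the lower one was nearest to Mir5709. Cfap43 held the lower region of Mir8090 and, by the authors' class alone, a higher one that lay outside its RefSeq gene. Egfem1 held a lower region in intron 4 nearest to Mir551b and a higher one in intron 6 nearest to Mir21b, 234 kb apart. Lingo2 and Gpc6, which encode cell surface proteins, held 1 lower region each.

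Conserved microRNAs were a minority of members and fell in both lists. Their share among all microRNAs of RefSeq was not counted, so the minority is not read as particular to the members. Families were sorted by name from general knowledge. Families shared across vertebrates had 5 higher and 3 lower regions, and families of mammals 1 higher and 2 lower. Together they made up 11 of the 69 regions (15.9%, 8.24 to 26.7), of which 6 were higher (54.5%, 23.4 to 83.3), against 36 of the other 58 (62.1%, 48.4 to 74.5). The wide interval of the 11 includes the share of the others. MicroRNAs named with a further letter after a conserved family had 5 higher and 3 lower regions, families listed as rodent 2 higher and 1 lower, and microRNAs in no list, nearly all with high numbers, 29 higher and 18 lower. Absence from the lists does not show that a microRNA is restricted to rodents.

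**Figure D4:**
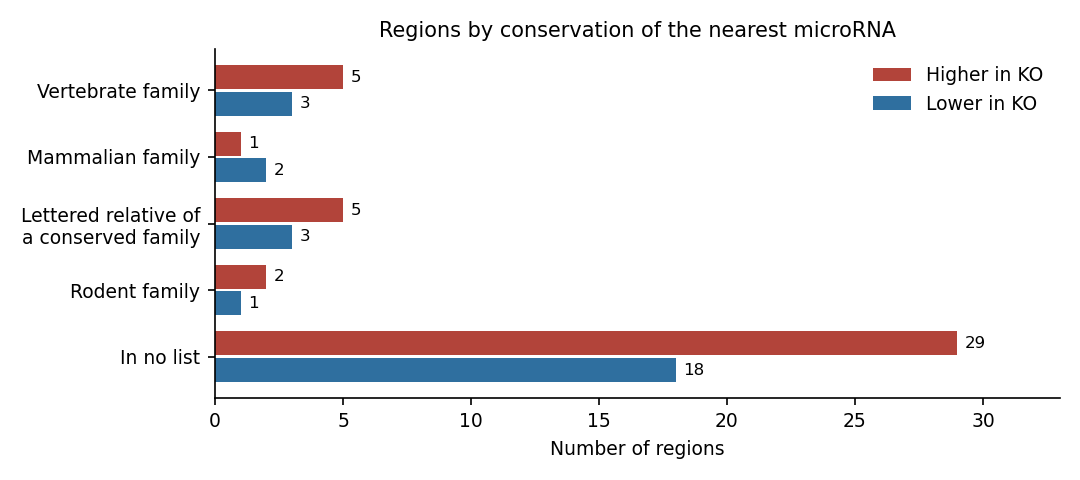
Number of regions higher (red) and lower (blue) in KO for each group of microRNAs, sorted by family name. MicroRNAs in no list hold 29 higher and 18 lower regions, and the vertebrate families 5 and 3.

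The 5 higher regions of vertebrate families were those of Mir218-2, Mir148a, Mir383, Mir133a-2 and Mir302b. Mir148a, a microRNA of many tissues including B cells and liver, had an intergenic region of score 3.18 at 109 kb downstream. Mir383 had one of score 3.17 in intron 1 of 7 of Sgcz, 29.6 kb upstream. Mir133a-2, a muscle microRNA that lies beside Mir1a-1 in the host transcript Mir1a-1hg, had an intergenic region of score 2.38. Mir302b, of the embryonic stem cell cluster with Mir302a, Mir302c, Mir302d and Mir367, had a region of score 1.95 at chr3:127534162-127534547, 10.7 kb upstream.

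The lower regions of conserved families were those of Mir122, Mir217, Mir551b, Mir873a and Mir708. Mir217, a pancreas microRNA beside Mir216a, had a region of score 4.65 at chr11:28803672-28804079, 39.9 kb downstream. Mir551b had one of score 3.13 in intron 4 of 14 of Egfem1, 64.4 kb upstream. Mir873a had one of score 2.86 in intron 2 of 7 of Lingo2, 18.5 kb upstream. The region of Mir708 is described with its higher counterpart.

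Regions of opposite direction lay near the same microRNA in 4 cases. Of the 63 microRNAs, 5 had at least 2 regions and 4 were in both lists. Among all 4741 genes of the lists, 575 had at least 2 regions and 293 were in both. The share in both lists was therefore about the same for microRNAs as for all genes. Mir708 lies in Tenm4, and both its regions were in intron 1 of 32 of that gene. A lower region of 633 bp and score 2.22 lay 17.7 kb upstream of it, at chr7:96231110-96231742, and a higher region of 770 bp and score 3.87 lay 27.5 kb downstream, at chr7:96276940-96277709. They were 45.2 kb apart. A further higher region, of the promoter class of Tenm4 with score 2.82, lay 41.0 kb from the hairpin, so that the lower region stood between higher ones.

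Mir21c had 3 regions. The lower one, of score 2.08 at chr8:128287273-128287768, lay 9.05 kb upstream, and the higher ones, of scores 1.69 and 1.95, lay 68.3 and 167 kb downstream. With Mir21b and Mir3967, the miR-21 look-alikes had 5 regions, 4 higher and 1 lower, beside 64.2% higher among all listed regions. Of the 5, 3 were those of Mir21c, and Mir3967 was added only after the sequences were seen. Mature miR-21c matched miR-21a-5p at 76.2% of bases, below the 80% used above for whole sequences. The region closest to Mir21a itself was 134 kb away and was higher.

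Mir3963 had a lower region of score 2.22 and a higher one of score 2.82, only 21.6 kb apart and both more than 120 kb downstream of its hairpin, outside genes. Mir6393 had a higher region of score 1.61 in intron 2 of 3 of Fam19a5 and a lower one of score 2.08 in intron 3, 38.0 kb apart. Mir3961 had 2 regions, both higher and both of score 2.52, at 22.5 and 159 kb. With 1 library per genotype, a real difference in direction between neighbours and chance variation between the libraries cannot be told apart.

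**Figure D5:**
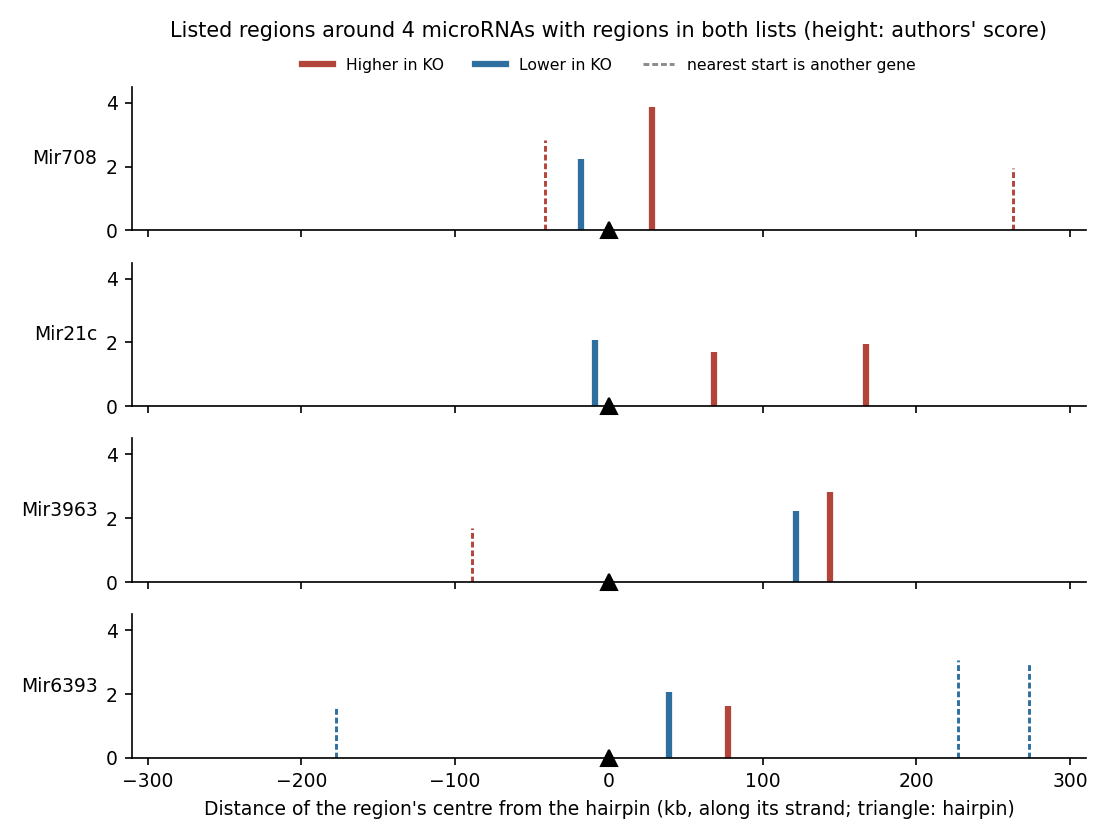
Listed regions within 300 kb of 4 microRNAs, by distance of the region's centre from the hairpin (kb, along the hairpin's strand; triangle, hairpin) and authors' score (height). Red regions are higher and blue ones lower in KO, and broken lines mark regions whose nearest start is another gene; at Mir708 the lower region lies between higher ones.

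The remaining 14 regions, 8 higher and 6 lower, lay 10.0 to 428 kb from their microRNAs and scored 1.48 to 3.07. Of these, 9 were in introns and 3 were intergenic. They include Mir1931 in the kinase gene Cdk17, Mir6346 in the Hedgehog factor gene Gli2 and the X-linked Mir3110 and Mir3472, all higher. Mir195b, at 307 kb upstream, and Mir6239, at 428 kb in Gpc6, were lower.

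Cell type lists of microRNAs held 1 member. Members made up 63 of the 1228 microRNAs of the RefSeq table (5.13%, 3.96 to 6.52). Of a list of microglia and macrophage microRNAs, among them Mir155, Mir146a, Mir223, Mir142 and Mir21a, 0 of 21 in that table were members, which allows a share of up to 16.1%. Hairpins of 4 of the 21 (19.0%, 5.45 to 41.9), Mir142, Mir150, Mir342 and Mir511, had a listed region within 50 kb, beside 220 of all 1228 (17.9%, 15.8 to 20.2), so neither count differed from the background beyond its interval. The closest region lay 18.0 kb from Mir150. Of 30 neural microRNAs 1 was a member, Mir218-2. Hairpins of 6 of the 30 (20.0%, 7.71 to 38.6) had a listed region within 50 kb, near the 17.9% of all microRNAs. The endothelial and erythroid lists held 2 and 4 microRNAs of the table, and 0 of them were members, counts too small to set against 5.13%.

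Genes that make and use microRNAs were nearest to 6 regions, 5 higher and 1 lower, out of 50 names in 3 lists. By current symbol, 5 of 48 such genes (10.4%, 3.47 to 22.7) were the nearest start of a region, beside 1722 of 21900 protein-coding genes (7.86%, 7.51 to 8.23). Of the 6 regions 83.3% (35.9 to 99.6) were higher, beside 61.7% (59.5 to 63.9) of the 1975 regions nearest to protein-coding genes, and both background shares lay within the intervals. Lin28b, whose product blocks let-7 processing, had a higher promoter region of score 1.95 at 307 bp upstream of its start. Dicer1 had a higher region of score 2.04 in its 3′ UTR, 61.5 kb downstream of its start. Smad4, a signalling factor that can join the Drosha complex, had a higher region of score 3.47 at 23.2 kb. Tnrc6a, which encodes a scaffold of silencing, had a higher one of score 1.69 at 36.1 kb. Both regions of Dcp2, the decapping enzyme gene, lay in introns of Mcc, the higher one with score 7.08 and the lower one with 5.70. Counted by the gene whose intron, exon or UTR contains the region, there were 2 regions, both higher, that of Dicer1 and one of score 2.82 in intron 12 of 21 of Tnrc6c.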

How the data were processed

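H3K9me3 and IgG CUT&Tag libraries were made from sorted microglia, per the labels' protocols. The submitters' processing notes list CASAVA 1.4, FastQC, Bowtie2 2 and mm9 without roles or order. Not given in the sources used here are the peak caller, the rule of the lists, the use of IgG and the annotation tool.

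Each list deposited by the authors gives, per the file headers, the region's position, width, peak score, class, gene with the nearest start and distance. The score is the authors' own, with no stated scale. Depth is unknown, and unequal depth could change which regions were listed. All 63 microRNAs overlapped the RefSeq GRCm38.p6 gene of that name, which speaks for the build of the gene columns and not for that of the regions. Of 12 regions with a score above 50, 9 overlapped the gene with the nearest start, against 19.8% of all regions. Each gene was assigned by its distance from the region, and no comparison with mm9 genes was made, so this overlap does not decide the build. Coordinates were read as GRCm38, like the gene columns, and none was converted. The build of the regions could not be checked against reads.

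Counts, medians, exact Clopper-Pearson intervals and overlaps with RefSeq genes were computed with pandas 2.3.3, numpy 2.4.6 and scipy 1.17.1 under Python 3.11.15 and drawn with matplotlib 3.10.9, and the procedures were tested on simulated data. Sequences were aligned without gaps. The members and lists were chosen with earlier results of these data known. Values are given in full for the 10 highest scores of each list, promoter regions and those within 10 kb, conserved families, microRNAs with at least 2 regions and cell type lists. Alternatives covered score, distance, merging within 10 kb, X, repeated microRNAs, RefSeq hairpins and hosts.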

Additional observations from a re-analysis of the deposited data

How the results depend on the processing

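Of 29 recomputed values, 5 could not move, because merging regions within 10 kb and adding host transcripts changed no member. Of the other 24, 23 stayed within the interval or spread of the reported value. The share of higher regions ran from 59.1% to 65.4% over 8 alternatives that changed the regions counted. The alternative by RefSeq hairpins within 50 kb, at 60.9%, counted hairpins, several of which can share a region. By distinct region that share was 58.1% (50.2 to 65.7). The intergenic share ran from 30.0% to 31.8%, the conserved share from 11.6% to 20.0%, and the median distance from 16.6 to 20.5 kb. The share in introns or exons of a named gene ran from 48.5% to 59.4%, the highest by RefSeq gene bodies. The 1 value that moved was the count of regions of genes that make or use microRNAs, 6 by nearest start and 2 by the gene that contains the region. Chosen after seeing the data were 3 alternatives, namely the gene that contains the region, RefSeq gene bodies, and leaving out microRNAs with regions in both lists, which gave 61.7% higher. No paired analysis was possible because each genotype had 1 H3K9me3 library. The lists hold no value per library, so no library could be left out, and unequal depth between the libraries could not be measured.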

Other observations

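Some microRNAs lay close to a listed region whose nearest start belonged to another gene. Of 1228 microRNAs in the RefSeq gene table, 0 overlapped a listed region, 16 lay within 3 kb of one, 49 within 10 kb and 220 within 50 kb. For 134 of the 220 (60.9%, 54.1 to 67.4) the nearest region was higher in KO and for 86 lower. That interval takes hairpins as independent, although several can share a region, as in the Mir743 cluster. The 220 had 167 distinct regions, 97 higher and 70 lower (58.1%, 50.2 to 65.7), beside 64.2% higher among all listed regions. Of the 49, 27 had the nearest start.

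Among the others, Mir101c, named after the conserved Mir101 family, lay 519 bp from a higher region of score 6.86. That region, at chr9:3037864-3038150, was of the promoter class and nearest to the start of Gm26870. Mir423, of a mammalian family, lay 5.76 kb from a higher region of score 7.24 nearest to the splicing gene Nsrp1. The 3 other conserved microRNAs of this kind lay near lower regions. Mir138-1, a neural microRNA, was 5.45 kb from a region of score 2.57. Mir211, a microRNA of pigment cells, was 5.30 kb from a region of score 2.30. Mir26a-2 lay 9.68 kb from the promoter region of Avil, also of score 2.30, and Mir546 lay 6.74 kb from the same region.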
